A study of Drosophila melanogaster with 12 samples.

Results

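The vacuolar proton pump (V-ATPase) genes were followed as a family in wing imaginal discs of 3 Drosophila melanogaster trithorax group mutants. The family was defined by name, as every gene whose symbol in the array's probe annotation started with Vha followed by a letter or digit. This gave 31 genes of the 12131 genes with a probe, on 37 of the 13164 probes that carried 1 symbol. The V1 sector takes 11 of the genes, and the V0 sector with its accessory proteins the other 20. Vha68-1 and Vha68-2, the main copies of the catalytic A subunit, were under no probe of the annotation and were not analysed here.

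RNA of mutant discs was set against RNA of 1 common reference on spotted arrays of long oligonucleotides. The mutants were ash2-I1, an ash2 allele that dies as a late larva or early pupa with small and abnormal discs, ash2-112411, a weaker ash2 allele that dies mostly as a pharate adult, and ash1-22, a null allele of ash1 used over the line ash1-22-F2A. The reference was a pool of wing disc RNA from the isogenic DrosDel line w1118, hybridised on every array. Chromosomes X, Y and 2 of that line had been placed in the mutant stocks, and the third, which carries ash1 and ash2, had not. All discs came from wandering larvae of the third instar, the mutants being picked as non-Tubby larvae from stocks kept over the TM6c balancer. There were 2 RNA extractions for each mutant, each hybridised to 2 arrays with the dyes Cy3 and Cy5 swapped, 12 arrays in all. The labels do not say whether the extractions came from separate sets of larvae, so p-values measured only the spread between extractions. The pool counted as 1 control sample, and its own error was in no standard error.

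A V-ATPase is a rotary pump in the membrane of acidic organelles. Its peripheral V1 sector, subunits A to H, hydrolyses ATP, and its V0 sector, subunits a, c, c double prime, d and e, carries protons across the membrane. Together they acidify endosomes and lysosomes in all cells and energise transport across epithelia such as the Malpighian tubule. In flies several subunits are encoded by more than 1 gene, with 1 widely expressed copy and others restricted to tissues such as the testis.

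Values are log2 ratios of mutant over pool, where 0 means equal and the sign was turned on the arrays that carried the mutant in Cy3. A gene counted as higher or lower when its adjusted p was under 0.05 and its change over 1.5-fold (0.58 on the log2 scale), in a limma fit over all probes with the 2 extractions as replicates (n = 2 per mutant). Between 5804 and 11179 of 16416 spots had a value on an array, the fewest on the Cy3 array of ash1-22 extraction 2. The dye-swapped arrays of an extraction correlated at 0.37 in ash2-112411 extraction 1, across probes, and at 0.665 to 0.775 in the other extractions. The ash2 transcript was at -1.75 ± 0.16 in ash2-I1 and -1.62 ± 0.16 in ash2-112411 (SE, adjusted p = 0.00022 and 0.00028), and at 0.26 ± 0.16 in ash1-22. The ash1 transcript was not tested. Levels of wing disc markers could not be checked, since the values are ratios.

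All 31 Vha genes had a value on at least 1 array, and 9 had one on all 12. In ash2-I1 17 of them could be tested, in ash2-112411 24 and in ash1-22 24, and 14 in all 3 mutants. Vha100-4 and Vha16-4, copies of the a and c subunits, were on too few arrays to be tested in any mutant.

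Few pump genes passed the test, and the median of the family stayed near 0 in each mutant. In ash2-112411 discs Vha36-1, the D subunit of the central stalk, rose 2.85-fold and Vha16-1, the proteolipid of the proton channel, 1.51-fold, while Vha55 (the nucleotide-binding B subunit) and Vha44 (the C subunit that links V1 to V0) fell by 0.71 and 0.66 on the log2 scale. In ash1-22 discs Vha36-1 alone passed, 1.72-fold higher. In ash2-I1 discs Vha100-2, an a subunit, alone passed and fell by 0.79 on the log2 scale. The 3 mutants were read against the same pool, so these calls share it.

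Counted against all genes, 0 of 17 Vha genes were higher in ash2-I1, where 5.45% of all genes tested were, and 1 of 17 was lower, where 6.73% of all genes were. In ash2-112411 2 of 24 were higher against 8.35% of all genes, and 2 of 24 were lower against 8.59%. In ash1-22 1 of 24 was higher against 1.79% of all genes, and 0 of 24 were lower against 1.18%. Each of these counts is within 1 gene of what the background share gives for that number of genes. At an unadjusted p under 0.05 in the same limma fit, 3 Vha genes were above and 3 below the pool in ash2-I1 (all genes, 22.7% and 23.7%). There were 10 above and 7 below in ash2-112411 (all genes, 27.4% and 29.2%), and 5 above and 5 below in ash1-22 (all genes, 13.4% and 16.6%). The median Vha gene stood at -0.03 in ash2-I1 (all genes tested, 0.02), at 0.01 in ash2-112411 (0.00) and at 0.01 in ash1-22 (0.01). By sector the medians were 0.10 (V1, 6 genes) and -0.12 (V0, 11 genes) in ash2-I1, -0.09 (7) and 0.13 (17) in ash2-112411, and -0.08 (10) and 0.06 (14) in ash1-22.

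**Figure D1:**
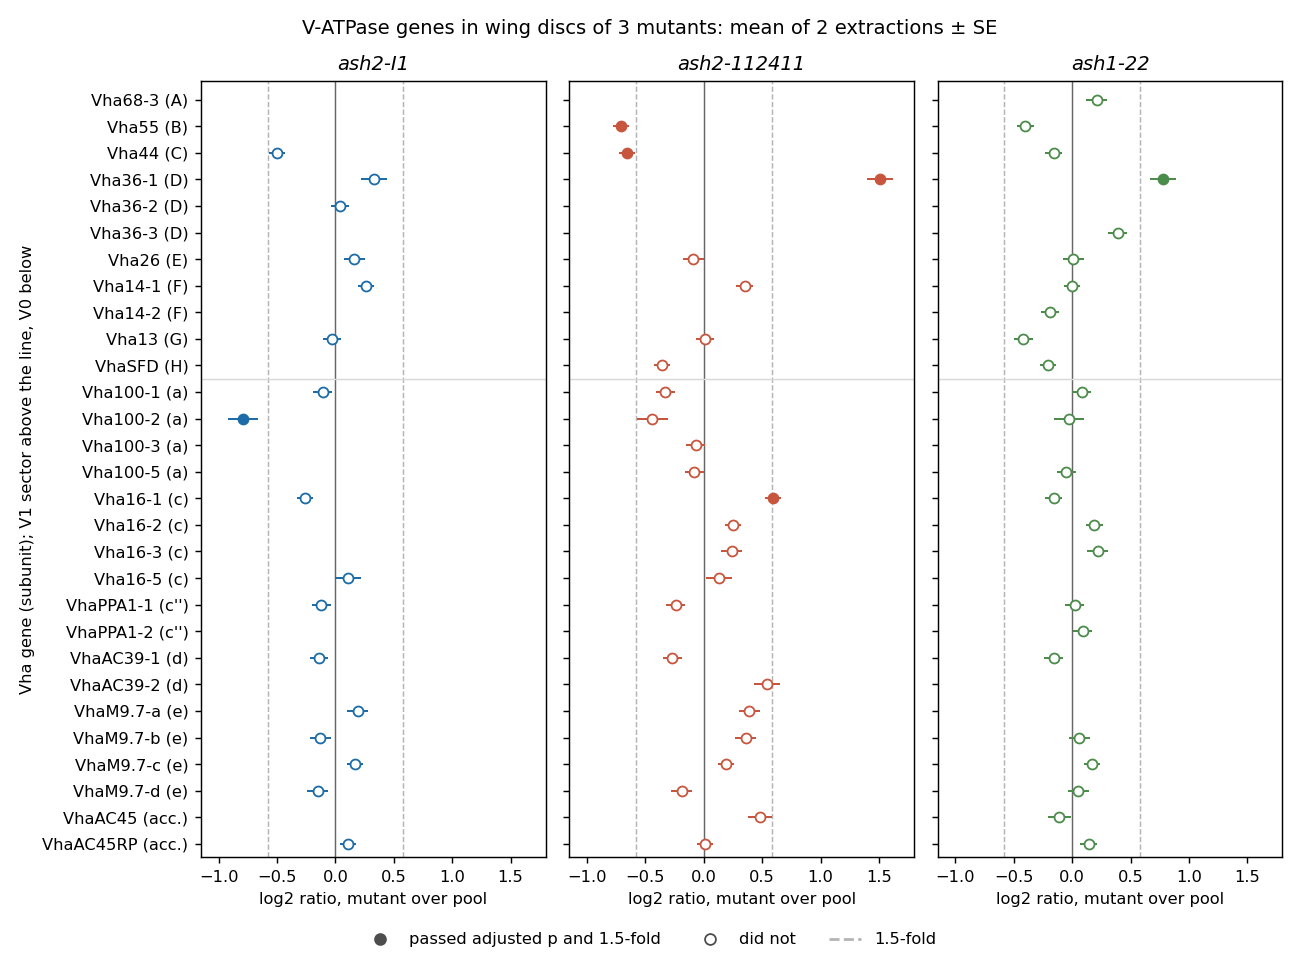
Mean log2 ratio of mutant over pool (x axis) with its SE for each tested Vha gene (y axis, subunit in brackets) in ash2-I1, ash2-112411 and ash1-22, with filled points for genes past adjusted p and 1.5-fold (dashed lines). Filled points are Vha100-2 in ash2-I1, Vha55, Vha44, Vha36-1 and Vha16-1 in ash2-112411, and Vha36-1 in ash1-22, and most other points lie within the dashed lines around 0.

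Subunit D, encoded by Vha36-1, Vha36-2 and Vha36-3, is part of the rotor shaft of V1. Vha36-1 read 0.39 and 0.05 on the Cy5 and Cy3 arrays of ash2-I1 extraction 1, and 0.64 and 0.25 on those of extraction 2. In ash2-112411 it read 1.82 and 0.80 in extraction 1 and 2.34 and 1.08 in extraction 2. In ash1-22 it read 0.65 and 0.83 in extraction 1 and 0.81 and 0.82 in extraction 2. All 12 values were above the pool, and the 4 arrays of ash2-I1 lay just below the lowest array of the other mutants.

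The fitted mean of Vha36-1 was 0.33 ± 0.11 in ash2-I1 (adjusted p = 0.043, under 1.5-fold), 1.51 ± 0.11 in ash2-112411 (adjusted p = 0.00013) and 0.78 ± 0.11 in ash1-22 (adjusted p = 0.0072). Among all genes tested it ranked, counted from the top, 82 of 9734 in ash2-112411, 92 of 8142 in ash1-22 and 901 of 6897 in ash2-I1. Without either extraction of ash1-22 its mean there was 0.74 or 0.82, near the value with both. The SE was then 0.17 in place of 0.11, and the call was not kept. In ash2-112411 the dye orientations differed by 1.01 and 1.27 in the 2 extractions, and the lowest array was still above the 1.5-fold limit. Without extraction 1 of ash2-112411, whose dye swap correlated least, Vha36-1 was at 1.71, Vha16-1 at 0.63, Vha44 at -0.72 and Vha55 at -0.75, and all 4 passed.

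The other D genes were measured less often. Vha36-2, a restricted copy, read -0.01, -0.02, 0.07 and 0.13 on the 4 arrays of ash2-I1, close to 0, with a mean of 0.04 ± 0.08 (adjusted p = 0.71), and -0.12 and -0.15 on both arrays of ash2-112411 extraction 2. Vha36-3 read 0.40, 0.29 and 0.43 on 3 arrays of ash1-22, all above the pool, with a mean of 0.39 ± 0.08 (adjusted p = 0.040, under 1.5-fold). It was measured on no array of ash2-112411 and on 1 of ash2-I1, at 0.26. No mutant had tested values for all 3 D genes, so the paralogs cannot be set side by side in ash2-112411, where Vha36-1 was highest.

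**Figure D2:**
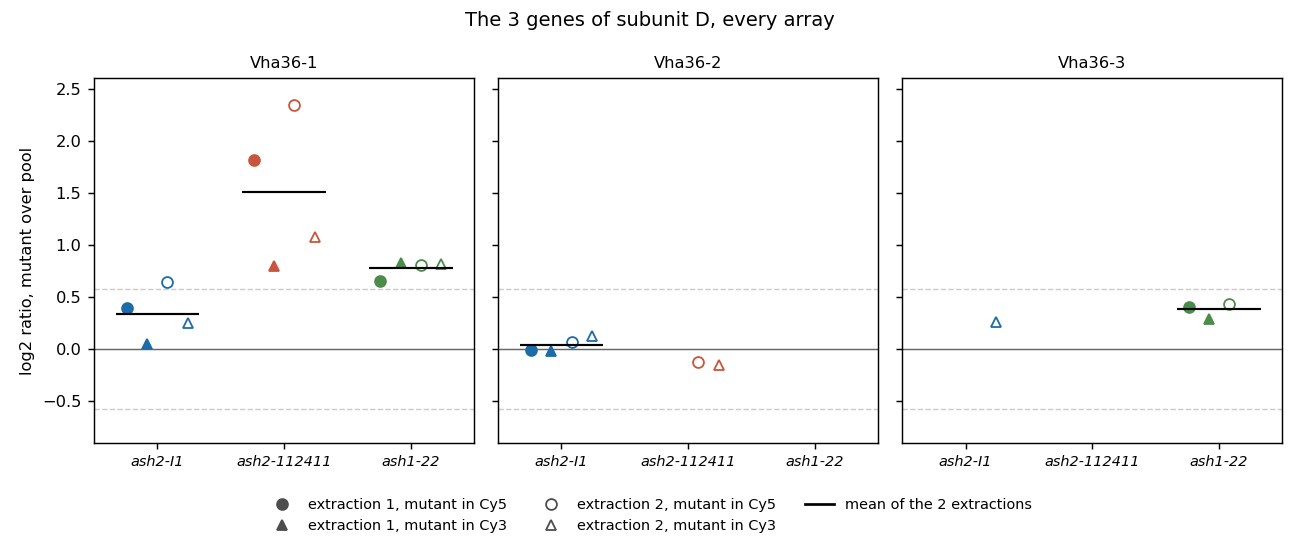
Log2 ratio of mutant over pool (y axis) on every array for the genes of subunit D in ash2-I1, ash2-112411 and ash1-22 (x axis), by extraction and by the dye of the mutant, with the mean of the extractions as a bar. Vha36-1 lies above 0 on all 12 arrays, from 0.05 in ash2-I1 to 2.34 in ash2-112411, and its paralogs were measured on fewer arrays.

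Subunits B, C, E, G and H have 1 gene each. Vha55, the B subunit that completes the ATP-binding ring with A, read -0.43 and -0.93 on the Cy5 and Cy3 arrays of ash2-112411 extraction 1 and -0.73 and -0.78 in extraction 2. It read -0.34 and -0.35 in ash1-22 extraction 1 and -0.45 on the Cy5 array of extraction 2. All were below the pool, and the highest array of ash2-112411 lay just above the lowest of ash1-22, so the mutants overlapped. Its mean was -0.71 ± 0.07 in ash2-112411 (adjusted p = 0.00059) and -0.40 ± 0.07 in ash1-22 (adjusted p = 0.025, under 1.5-fold), and this probe had no value in ash2-I1. A further probe of Vha55 read -0.42 on 1 array of ash2-I1 and -0.47 and -0.30 in ash2-112411 extraction 2, and gave -0.49 ± 0.10 in ash1-22 (adjusted p = 0.038, under 1.5-fold).

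Vha44, the C subunit, which leaves V1 when the pump disassembles in yeast, was below the pool wherever it was measured. It read -0.47 on extraction 1 and -0.53 on extraction 2 of ash2-I1, on the Cy5 array of each. In ash2-112411 it read -0.27 and -0.94 in extraction 1 and -0.61 and -0.83 in extraction 2, Cy5 first. In ash1-22 it read -0.09 and -0.19 in extraction 1 and -0.19 on the Cy5 array of extraction 2. The mean was -0.50 ± 0.07 in ash2-I1 (adjusted p = 0.0014), short of 1.5-fold, -0.66 ± 0.07 in ash2-112411 (adjusted p = 0.00037) and -0.16 ± 0.07 in ash1-22 (adjusted p = 0.16). The arrays of both ash2 alleles lay below those of ash1-22 without overlap.

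The remaining single-gene subunits did not reach 1.5-fold. Vha26, the E subunit of the outer stalk, stood between -0.09 and 0.16 in the 3 mutants, with adjusted p from 0.19 to 0.95. Vha13, the G subunit that pairs with E, read -0.44, -0.60, -0.15 and -0.49 on the arrays of ash1-22, all below the pool, with a mean of -0.42 ± 0.08 (adjusted p = 0.018). Its 4 arrays in ash2-I1 lay between -0.12 and 0.05 and those in ash2-112411 between -0.13 and 0.16, so all arrays of both ash2 alleles lay above those of ash1-22. VhaSFD, the regulatory H subunit, stood at -0.36 ± 0.07 in ash2-112411 (adjusted p = 0.0079) and -0.21 ± 0.07 in ash1-22 (adjusted p = 0.12). Of the 5 single-gene subunits tested in ash2-112411, 2 were lower and none higher, between -0.71 and 0.01 (all genes, 8.59% lower and 8.35% higher). None of the 3 tested in ash2-I1 and none of the 5 tested in ash1-22 passed.

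Subunits A and F have restricted copies on the array. Vha68-3, the only A gene with a probe, stood at 0.21 ± 0.09 in ash1-22 (adjusted p = 0.18) and lies next to Vha68-2 in the genome. Vha14-1, the widely expressed F subunit of the rotor, read 0.56 and 0.66 on the Cy5 arrays of ash2-I1 but -0.07 and -0.11 on the Cy3 arrays. In ash2-112411 it read 0.71 and 0.83 on the Cy5 arrays and -0.10 and -0.03 on the Cy3 arrays. Its means of 0.26 ± 0.07 and 0.35 ± 0.07 (adjusted p = 0.019 and 0.0040, both under 1.5-fold) thus come from arrays of 1 dye orientation. Its copy Vha14-2 stood at -0.19 ± 0.08 in ash1-22 (adjusted p = 0.18).

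In V0 the large a subunits anchor the pump and set its place in the cell. Vha100-2, a copy known from transporting epithelia, read -0.91 and -1.24 in ash2-I1 extraction 1 and -0.51 on the Cy5 array of extraction 2. It read -0.41 in ash2-112411 extraction 1 (Cy5) and -0.27 and -0.66 in extraction 2, and -0.08, -0.18, 0.07 and 0.08 in ash1-22. On this probe the values of both ash2 alleles lay below all those of ash1-22. The mean was -0.79 ± 0.13 in ash2-I1 (adjusted p = 0.0028), -0.44 ± 0.13 in ash2-112411 (adjusted p = 0.025, under 1.5-fold) and -0.03 ± 0.13 in ash1-22 (adjusted p = 0.91). Without extraction 1 the value in ash2-I1 was -0.51 (adjusted p = 0.020), under 1.5-fold, so that call rests on extraction 1. A further probe of Vha100-2 read -1.14 and -0.15 in ash2-112411 extraction 1 and -0.99 and -0.37 in extraction 2, Cy5 first, with a mean of -0.66 ± 0.07 (adjusted p = 0.00070, 1.58-fold lower), so it passed there where the first probe did not. In ash1-22 that probe read -0.37, -0.30 and -0.23, below the pool and overlapping its values in ash2-112411, with a mean of -0.28 ± 0.07 (adjusted p = 0.057). It had no value in ash2-I1.

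The paralogs of Vha100-2 moved less. Vha100-1, the copy known from neurons, read -0.12, -0.35, -0.47 and -0.38 in ash2-112411, all below the pool, with a mean of -0.33 ± 0.08 (adjusted p = 0.011, under 1.5-fold). It stood at -0.11 ± 0.08 in ash2-I1 (adjusted p = 0.33) and 0.08 ± 0.08 in ash1-22 (adjusted p = 0.53). Vha100-3 stood at -0.07 ± 0.08 in ash2-112411, and Vha100-5 at -0.08 ± 0.08 in ash2-112411 and -0.05 ± 0.08 in ash1-22. Vha100-4, the genomic neighbour of Vha100-2, had only 0.21 on 1 array of ash2-112411 and 0.12 on 1 array of ash1-22.

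The c subunits form the proteolipid ring that turns as protons pass. Vha16-1, the main copy, read -0.25, -0.37, -0.44 and 0.04 in ash2-I1. In ash2-112411 it read 0.04 and 1.07 on the Cy5 and Cy3 arrays of extraction 1 and 0.44 and 0.82 on those of extraction 2. In ash1-22 it read -0.26, -0.10, -0.19 and -0.10. The 4 arrays of ash2-112411 were at or above the highest array of the other mutants, and the Cy3 arrays were the high ones. The mean was -0.26 ± 0.07 in ash2-I1 (adjusted p = 0.023, under 1.5-fold), 0.59 ± 0.07 in ash2-112411 (adjusted p = 0.00055) and -0.16 ± 0.07 in ash1-22 (adjusted p = 0.17).

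The rise of Vha16-1 was seen with 1 of its probes only. The second probe read 0.37 and -0.15 in ash2-112411 extraction 2 and 0.04 on the Cy3 array of extraction 1, around 0, with a mean of 0.08 ± 0.08 (adjusted p = 0.44). Averaged over the probes, Vha16-1 stood at 0.28 ± 0.08 (adjusted p = 0.023), short of 1.5-fold, and without extraction 2 the first probe gave 0.56. Vha16-2 and Vha16-3, neighbours in the genome, stood at 0.25 ± 0.07 and 0.24 ± 0.09 in ash2-112411 (adjusted p = 0.026 and 0.062), and at 0.19 ± 0.07 and 0.22 ± 0.09 in ash1-22 (adjusted p = 0.14 and 0.16). Vha16-5 stood at 0.11 ± 0.11 in ash2-I1 and 0.13 ± 0.11 in ash2-112411 (adjusted p = 0.49 and 0.37), and Vha16-4 read -0.05 on its only array. Which copies a probe also binds was not tested.

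**Figure D3:**
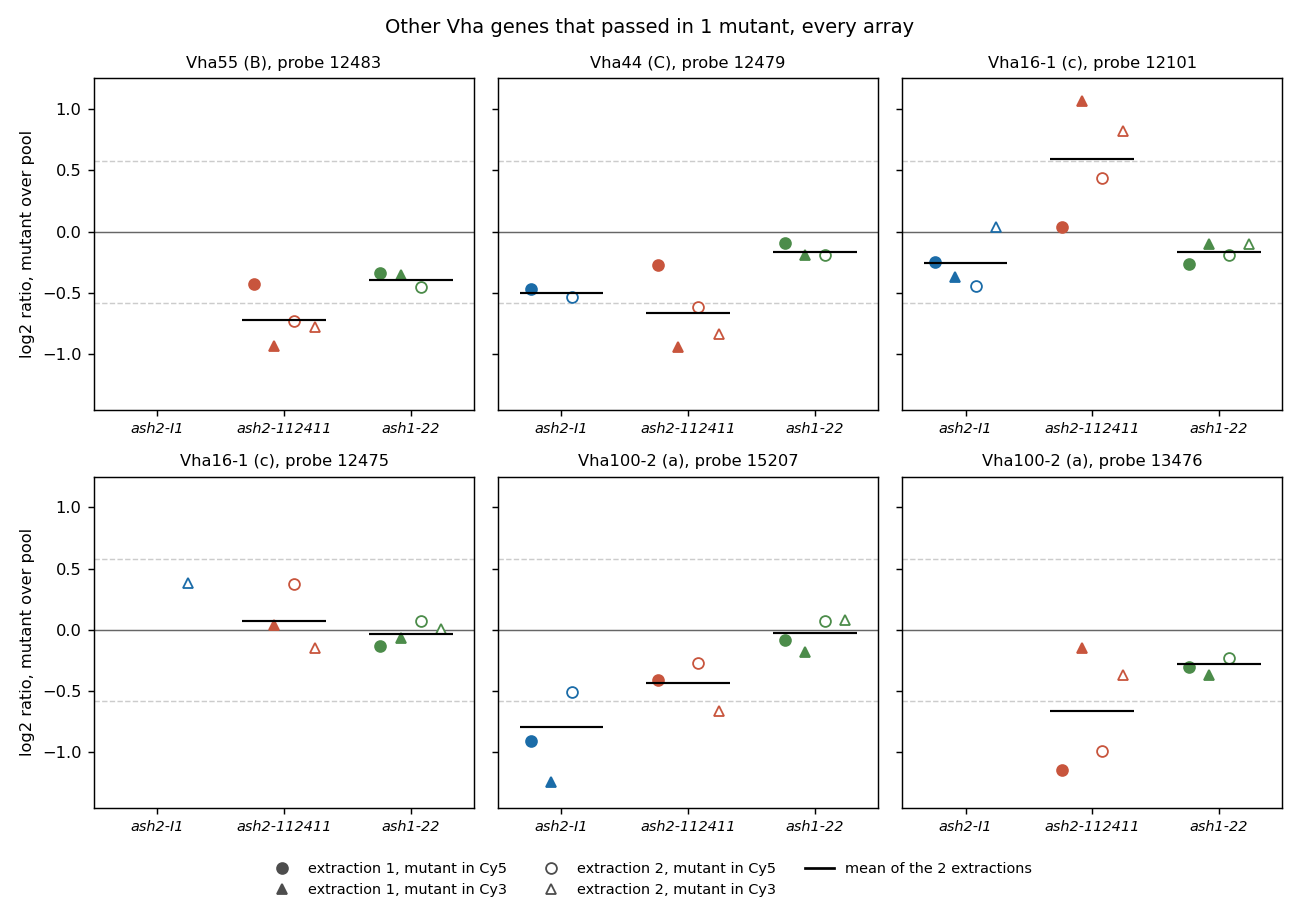
Log2 ratio of mutant over pool (y axis) on every array for the Vha genes other than Vha36-1 that passed in 1 mutant, by probe, in ash2-I1, ash2-112411 and ash1-22 (x axis). In ash2-112411 the first probe of Vha16-1 runs from 0.04 to 1.07 and the second from -0.15 to 0.37, while Vha55 and Vha44 are below 0 on every array that measured them.

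The other V0 subunits stayed under 1.5-fold. The c double prime genes, which add a proteolipid of their own to the ring, stood at -0.12 ± 0.08, -0.24 ± 0.08 and 0.02 ± 0.08 (VhaPPA1-1, in ash2-I1, ash2-112411 and ash1-22, adjusted p = 0.27, 0.039 and 0.89) and at 0.09 ± 0.08 in ash1-22 (VhaPPA1-2, adjusted p = 0.49). Subunit d, which seats the central stalk on the ring, is encoded by VhaAC39-1 and its restricted copy VhaAC39-2. VhaAC39-1 stood at -0.14 ± 0.08, -0.27 ± 0.08 and -0.16 ± 0.08 in the same order (adjusted p = 0.24, 0.027 and 0.23). VhaAC39-2 was measured only in ash2-112411, at -0.23 and 0.97 in extraction 1 and 0.53 and 0.90 in extraction 2, Cy5 first, with a mean of 0.54 ± 0.11 (adjusted p = 0.0091), short of 1.5-fold. Without extraction 1 it was 0.72 and passed.

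Subunit e, a small hydrophobic protein of V0, has 4 genes. VhaM9.7-b read 0.24, -0.81, 0.43 and -0.36 in ash2-I1, and 0.81, -0.14, 0.76 and 0.02 in ash2-112411, Cy5 before Cy3 in each extraction. In ash1-22 it lay between -0.02 and 0.19. The sign followed the dye in ash2-I1, and the means were -0.13 ± 0.09 in ash2-I1 (adjusted p = 0.31), 0.36 ± 0.09 in ash2-112411 (adjusted p = 0.012, under 1.5-fold) and 0.06 ± 0.09 in ash1-22 (adjusted p = 0.67). VhaM9.7-a stood at 0.19 ± 0.09 in ash2-I1 and 0.39 ± 0.09 in ash2-112411 (adjusted p = 0.15 and 0.012). VhaM9.7-c stood at 0.17 ± 0.07, 0.19 ± 0.07 and 0.17 ± 0.07 in ash2-I1, ash2-112411 and ash1-22 (adjusted p = 0.082, 0.046 and 0.14). VhaM9.7-d stood at -0.15 ± 0.09, -0.19 ± 0.09 and 0.05 ± 0.09 in the same order (adjusted p = 0.22, 0.11 and 0.71).

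Of the accessory proteins, VhaAC45 gave opposite values with its 2 probes. In ash2-112411 the first read -0.40 and 0.96 in extraction 1 and 0.33 and 1.02 in extraction 2, Cy5 first, with a mean of 0.48 ± 0.10 (adjusted p = 0.010). The second read 0.21 and -0.84 in extraction 1 and -0.71 on the Cy3 array of extraction 2, with a mean of -0.51 ± 0.11 (adjusted p = 0.0078). Neither reached 1.5-fold, and no direction is given for VhaAC45 there, although the first probe passed without extraction 1 (0.67). In ash1-22 its probes stood at -0.11 ± 0.10 and -0.43 ± 0.11 (adjusted p = 0.53 and 0.053). VhaAC45RP, a related gene, stood between 0.01 and 0.14 in the 3 mutants. ATP6AP2, an accessory protein whose symbol no longer starts with Vha and which is no member, stood at -0.01, -0.13 and 0.13 in ash2-I1, ash2-112411 and ash1-22 (adjusted p = 0.94, 0.24 and 0.34).

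In the ash2 alleles the median gap between dye orientations was wider for the pump genes than for all probes. The median absolute gap between the 2 arrays of an extraction was 0.80 over 23 Vha probes in ash2-112411 extraction 1, against 0.39 over all probes, and 0.36 against 0.22 in extraction 2. In ash2-I1 it was 0.35 against 0.25 and 0.36 against 0.22, and in ash1-22 0.11 against 0.13 and 0.08 against 0.16. Of the Vha genes with values on all 4 arrays, opposite signs in the 2 orientations were seen for 5 of 13 (ash2-I1, all genes 30.8%), 6 of 19 (ash2-112411, all genes 30.5%) and 3 of 11 (ash1-22, all genes 24.4%). All 4 arrays had 1 sign for 3, 7 and 5 of them in the same order (all genes, 48.9%, 52.9% and 53.0%), among them Vha36-1 in each mutant. Averaging the orientations cancels a dye effect only where both arrays gave a value, which Vha44 did not have in ash2-I1.

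**Figure D4:**
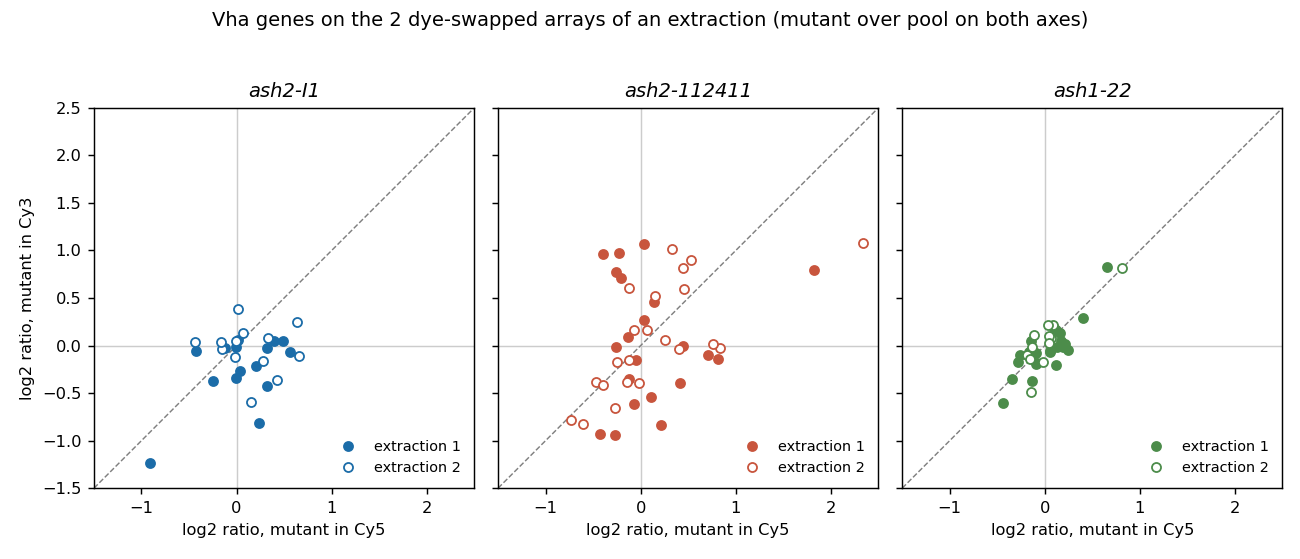
Log2 ratio of mutant over pool with the mutant in Cy3 (y axis) against that with the mutant in Cy5 (x axis), 1 point for each tested Vha gene with values on both arrays of an extraction, with equality as a dashed line. Points of ash1-22 lie near the line, those of ash2-112411 scatter widely, and Vha36-1 of ash2-112411 lies far to the right at 1.82 and 2.34 on the Cy5 arrays.

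Differences between mutants were tested directly, where the pool cancels. Between ash2-I1 and ash2-112411 3 of 16 Vha genes differed, where 32.1% of all genes did. Vha36-1 was lower in ash2-I1 by 1.18 (difference -1.18 ± 0.15, adjusted p = 0.0036), the first probe of Vha16-1 also (-0.85 ± 0.10, adjusted p = 0.0030), and VhaM9.7-b also (-0.49 ± 0.13, adjusted p = 0.025). The 2 dye orientations of VhaM9.7-b had opposite signs in both ash2 alleles. Its difference did not pass in a limma fit with the 4 arrays as replicates (adjusted p = 0.21), but did with the dye effect of each probe as a term (0.04). The second probe of Vha16-1 could not be tested in that pair. It read 0.38 on its only array of ash2-I1, the Cy3 array of extraction 2. On the Cy3 array of ash2-112411 extraction 2 it read -0.15, so these 2 arrays differed in the other direction. The mean over the probes of Vha16-1 differed by -0.50 (adjusted p = 0.018). Between ash2-I1 and ash1-22 3 of 14 differed, where 23.0% of all genes did. Vha100-2 (-0.76 ± 0.18, adjusted p = 0.023) and Vha44 (-0.34 ± 0.10, adjusted p = 0.045) were lower in ash2-I1, and Vha13 was higher (0.40 ± 0.11, adjusted p = 0.038). Vha36-1 did not pass there (-0.44, 95% interval -0.80 to -0.09, adjusted p = 0.074).

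Between ash2-112411 and ash1-22 7 of 20 Vha genes differed, where 27.1% of all genes did. Vha36-1 (0.73 ± 0.15, adjusted p = 0.015), Vha13 (0.43 ± 0.11, adjusted p = 0.026), Vha14-1 (0.36 ± 0.09, adjusted p = 0.032) and the first probe of Vha16-1 (0.76 ± 0.10, adjusted p = 0.0045) were higher in ash2-112411. The difference of Vha14-1 came from the Cy5 arrays of ash2-112411. It did not pass in limma fits with the dye effect of each probe as a term (adjusted p = 0.12) or with the 4 arrays as replicates (adjusted p = 0.32). Vha44 (-0.50 ± 0.10, adjusted p = 0.013) and Vha100-1 (-0.41 ± 0.11, adjusted p = 0.035) were lower. With the 4 arrays as replicates in limma, Vha36-1 (adjusted p = 0.081), Vha44 (0.05) and VhaAC45 (0.17) did not pass either. Vha13, Vha100-1 and the first probe of Vha16-1 did. The second probe of Vha16-1 differed by 0.11 (adjusted p = 0.49), and the mean over its probes by 0.37 (adjusted p = 0.053). The seventh gene was VhaAC45, whose first probe differed by 0.58 ± 0.15 (adjusted p = 0.033), the second by -0.09 (adjusted p = 0.69) and the mean over both by 0.38 (adjusted p = 0.063), so no direction is given for it here either. On the first probe of Vha100-2 the difference was -0.41 (adjusted p = 0.13) and on its further probe -0.38 (adjusted p = 0.039). Without extraction 1 or without extraction 2 of ash1-22, and without extraction 2 of ash2-112411, the first probe of Vha16-1 was the only one left. Without either extraction of ash1-22, or extraction 1 of ash2-I1, 0 Vha genes differed between ash2-I1 and ash1-22, and without extraction 2 of ash2-I1 Vha100-2 did.

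According to the methods the arrays were scaled within each mutant's set of 4. The deposited values still differed in spread within the sets, and more between them. Their median absolute deviation was 0.277 to 0.382 in ash2-I1, 0.396 to 0.464 in ash2-112411 and 0.197 to 0.252 in ash1-22. A common scale divides each array by its own spread, so it also takes out spread that a mutation may have caused. How much of the spread that was, was not tested. Brought to a common scale, Vha36-1 stood at 1.19 in ash2-112411 and 1.15 in ash1-22, and their difference was 0.03 (adjusted p = 0.90). On that scale Vha16-1 stood at 0.43, Vha55 at -0.54 and Vha44 at -0.49 in ash2-112411, all short of 1.5-fold, and Vha55 (-0.63), Vha13 (-0.61) and Vha36-3 (0.61) passed in ash1-22. The differences of Vha36-1 and the first probe of Vha16-1 between ash2-I1 and ash2-112411 kept their calls, at -0.86 and -0.68. Vha36-1 also differed between ash2-I1 and ash1-22 (-0.83, adjusted p = 0.0061). Those of Vha100-1 (-0.36), Vha44 (-0.23), Vha14-1 (0.31) and VhaAC45 (0.49) between ash2-112411 and ash1-22, and that of Vha44 between ash2-I1 and ash1-22 (-0.20), did not pass.

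**Figure D5:**
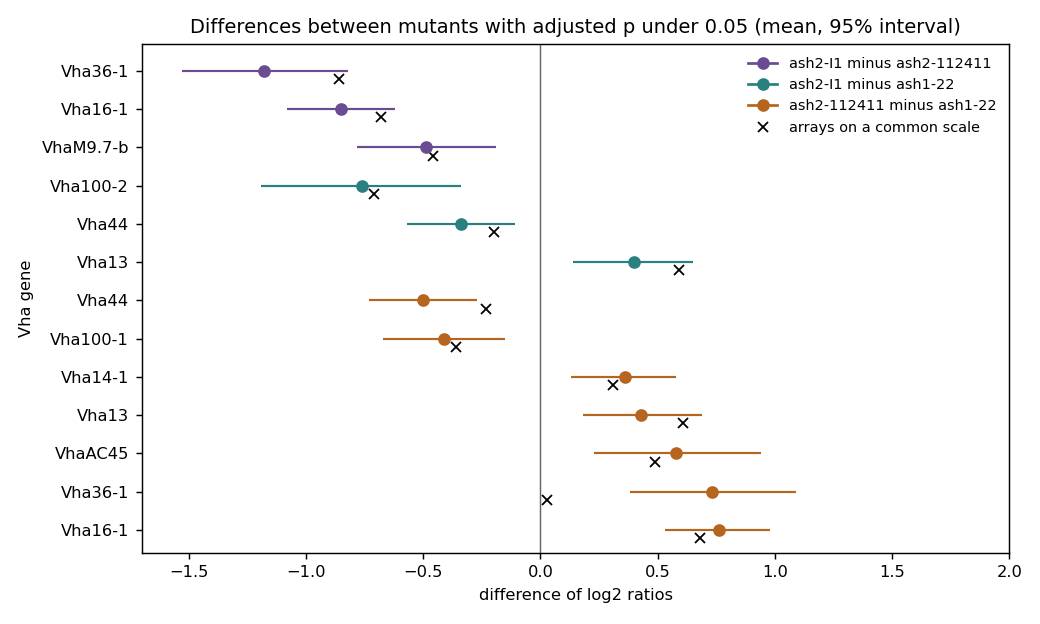
Difference of log2 ratios (x axis, 95% interval) for the Vha genes that differed between 2 mutants (y axis, coloured by pair), with the difference after bringing the arrays to a common scale as a cross. Vha36-1 has the largest difference, -1.18 for ash2-I1 minus ash2-112411, and its cross for ash2-112411 minus ash1-22 is at 0.03.

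Genes that work beside the pump were counted with the same rule. Of all genes tested, 5.45% were higher and 6.73% lower in ash2-I1. These shares were 8.35% and 8.59% in ash2-112411, and 1.79% and 1.18% in ash1-22. Of the lysosomal genes, 0 were higher and 2 of 10 lower in ash2-I1, 0 and 1 of 11 in ash2-112411, and 0 and 0 of 12 in ash1-22. Lamp1, a membrane protein of late endosomes and lysosomes, stood at -0.74 ± 0.08 in ash2-I1 (adjusted p = 0.00045), -0.83 ± 0.08 in ash2-112411 (adjusted p = 0.00026) and -0.25 ± 0.08 in ash1-22 (adjusted p = 0.080). Ppt1, a lysosomal thioesterase, passed in ash2-I1 (-0.63 ± 0.09, adjusted p = 0.0013). In ash2-112411 it stood at -0.49 ± 0.09 (adjusted p = 0.0028), short of 1.5-fold. Also short of 1.5-fold there, at a limma adjusted p under 0.05, were cathD (-0.49), CtsF (-0.38), Cln7 (-0.38) and Npc1a (-0.34). Of all genes tested there, 2560 of 9734 were lower at that p. Npc2a (0.26), Trpml (0.16) and Cln3 (0.07) stood above the pool. The lysosomal medians were -0.18, -0.34 and -0.01 in ash2-I1, ash2-112411 and ash1-22. Of the genes of endosome and vacuole traffic, none of 11 passed in ash2-I1 and none of 10 in ash1-22, while in ash2-112411 Vps25 (0.89) and Rbsn-5 (0.67) were higher and Chc (-0.79), the clathrin heavy chain, lower, of 12.

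On the lysosome the pump contacts the Ragulator complex, which recruits the growth kinase TORC1. Of the 7 such genes tested in each mutant none passed as lower, and the list medians were 0.18, -0.06 and -0.06 in ash2-I1, ash2-112411 and ash1-22. In ash2-112411 Lamtor4 stood at -0.50 ± 0.08 and RagC-D at -0.39 ± 0.09 (limma, adjusted p = 0.0024 and 0.0084, both under 1.5-fold). In ash2-I1 1 of them was higher, ash2-112411 had 2 and ash1-22 had 1. Lamtor2 stood at 0.49 ± 0.12, 1.86 ± 0.12 and 0.91 ± 0.12 in ash2-I1, ash2-112411 and ash1-22 (adjusted p = 0.018, 0.00012 and 0.0072, the first under 1.5-fold). Lamtor5 stood at 0.87 ± 0.10, 0.80 ± 0.10 and 0.30 ± 0.10 (adjusted p = 0.00054, 0.00062 and 0.092). Rbcn-3B, of the complex that helps assemble the pump, stood at 0.02 in ash2-112411 and -0.04 in ash1-22.

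Markers of other tissues were listed because discs can carry attached cells. Of the muscle genes 3 of 4 were higher in ash2-I1 (median 1.93), and so were 2 of 5 in ash2-112411 (median 0.52) and 3 of 5 in ash1-22 (median 0.82). Among them Mlc2, a myosin light chain, stood at 2.15, 1.37 and 0.82 in ash2-I1, ash2-112411 and ash1-22, Mp20 at 2.04, 0.97 and 1.67, and Mlc1 at 1.82, 0.52 and 1.29. Of the wing disc genes 3 of 4 were lower in ash2-I1 (median -1.0), and so were 4 of 6 in ash2-112411 (median -0.81) and 2 of 6 in ash1-22 (median -0.27). The dorsal selector ap stood at -0.90, -1.21 and -0.67 in the same order, the wing selector vg at -1.10, -0.81 and -0.25, and en at -1.13, -0.82 and -0.29, while Dll stood at -1.44 in ash2-112411 and -0.67 in ash1-22. The other tested genes of that list were nearer the pool. These were nub at -0.22, -0.21 and -0.13 (limma, adjusted p = 0.16, 0.14 and 0.43), and rn at -0.08 in ash2-112411 and 0.07 in ash1-22. In the Malpighian tubule list, where V-ATPase is abundant, 1 of 1, 0 of 4 and 0 of 2 passed, the one being Irk1, lower in ash2-I1. Of the nervous system genes elav and para, 2 of 3 tested, were lower in ash2-I1, and of the tracheal genes btl, 1 of 3, was higher in ash2-112411. No gene of the gut, fat body, hemocyte, salivary gland or testis lists passed, with 0 to 4 of them tested in a mutant. The fat body genes varied widely, Lsp2 at -1.76, 0.44 and 1.92 (SE 0.87) in ash2-I1, ash2-112411 and ash1-22, and Fbp1 at 1.07 ± 0.45 in ash1-22. Some genes had a limma adjusted p under 0.05 but were short of 1.5-fold. In ash2-112411 these included Lkr of the Malpighian tubule (0.36, adjusted p = 0.0067), and betaTry (0.50, adjusted p = 0.0033), Amy-d (0.38) and Amy-p (0.31) of the gut. Further ones were can and dj of the testis (0.55 and 0.49), Sgs4 of the salivary gland (0.58) and elav (0.48), which was lower in ash2-I1. The other tubule genes tested in ash2-112411, Irk3, Irk1 and ZnT35C, stood at 0.17, 0.05 and -0.06. Mlc1, Mlc2 and Mp20 were highest in ash2-I1, where Vha36-1 was lowest, while the muscle gene up stood at -0.04 there, 0.33 in ash2-112411 and 0.11 in ash1-22, and Tm2 was not tested in ash2-I1. The part of these genes in any Vha value was not tested. In whole discs, fewer cells of a type and less RNA per cell cannot be told apart.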

How the data were processed

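Wing disc RNA of 6 extractions (2 per mutant) was hybridised with a pooled reference on 12 two-colour arrays. Each deposited column held, per spot, the log2 of Cy5 divided by Cy3. According to the methods the authors read the spots with GenePix, removed poor spots, corrected the background with normexp, normalised each array with OLIN and scaled the 4 arrays of a mutant to a common spread. Signal over background is therefore unknown, and the number of arrays limits the precision. The file's probes were named through the platform annotation (101 probes with several symbols were left out) and matched by symbol to RefSeq genes, all 31 being protein-coding.

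Ratios were turned to mutant over pool and the arrays of an extraction averaged. The 11610 probes with enough values entered 1 limma fit (version 3.58.1, R 4.3.3), each mutant against 0 and each pair of mutants, two-sided, with Benjamini-Hochberg adjustment over all probes tested. A probe was tested in a mutant when both extractions had a value. A gene was represented by its probe with most arrays. The fit was tested on simulated data. Values are given for Vha genes that passed in a mutant or differed between mutants and for their paralogs, some as a mean or range. Of the other lists they are given for genes called in at least 2 mutants. Ppt1, Vps25, Rbsn-5, Chc, Irk1, elav, para, btl, Rbcn-3B, Lsp2, Fbp1, betaTry, can, dj, Sgs4, Lamtor4 and RagC-D were named after their values were seen. So were cathD, CtsF, Cln7, Npc1a, Npc2a, Trpml, Cln3, Lkr, Irk3, ZnT35C, Amy-d, Amy-p, nub and rn. The members and lists were chosen with earlier results of these data known. No sequences are given, since none were in the sources used here.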

Additional observations from a re-analysis of the deposited data

Results flagged for a closer look

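The test of the difference between mutants passed for 9 Vha genes, each at adjusted p under 0.05 over all genes tested with limma. For ash2-I1 minus ash2-112411 the differences were -1.18 for Vha36-1, -0.85 for the first probe of Vha16-1 and -0.49 for VhaM9.7-b. The mean over the probes of Vha16-1 differed by -0.50 there, and its second probe, at 0.38 on 1 array of ash2-I1, could not be tested. For ash2-I1 minus ash1-22 they were -0.76 for Vha100-2, -0.34 for Vha44 and 0.40 for Vha13. For ash2-112411 minus ash1-22 they were 0.76 for the first probe of Vha16-1, 0.73 for Vha36-1, 0.58 for the first probe of VhaAC45, 0.43 for Vha13, 0.36 for Vha14-1, -0.41 for Vha100-1 and -0.50 for Vha44. That of Vha14-1 came from the Cy5 arrays of ash2-112411. The second probes of Vha16-1 (0.11) and VhaAC45 (-0.09) did not pass for that pair. With the 4 arrays as replicates, the differences of Vha36-1, Vha44, VhaAC45 and Vha14-1 did not pass there either. Nor then did that of VhaM9.7-b between the ash2 alleles or that of Vha44 between ash2-I1 and ash1-22. With 2 extractions per mutant no single sample could be tested as standing apart.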

How the results depend on the processing

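Counts of Vha genes are given as higher and lower in ash2-I1 (0 and 1), ash2-112411 (2 and 2) and ash1-22 (1 and 0), and as differing between ash2-I1 and ash2-112411 (3), ash2-I1 and ash1-22 (3), and ash2-112411 and ash1-22 (7). No difference or called log2 ratio of a Vha gene named in the text changed direction under these alternatives, but the family medians did, ash2-I1 without extraction 1 (0.03, against -0.03 with both) and ash1-22 without extraction 2 (-0.05, against 0.01). With no fold threshold the counts were 2 and 3 of 17, 9 and 7 of 24, and 2 and 2 of 24. Of all genes tested, 1235 were then higher and 1368 lower of 6897 in ash2-I1. The same counts were 2337 and 2560 of 9734 in ash2-112411, and 395 and 530 of 8142 in ash1-22. On a common scale 1 was higher and 0 lower in ash2-112411, 2 higher and 2 lower in ash1-22, and 2 differed between ash2-112411 and ash1-22. With the 4 arrays as replicates 3 differed in that pair, Vha100-1, Vha13 and Vha16-1 (first probe). Between the ash2 alleles 2 then differed, without VhaM9.7-b, and between ash2-I1 and ash1-22 2, without Vha44. With each mutant fitted alone, or with the mean over the probes of a gene, 1 was higher in ash2-112411. With only probes measured on both arrays of both extractions 0 were lower in ash2-I1, Vha100-2 not being among them, and the median in ash2-112411 was 0.19. Centred arrays gave that median as 0.04. With the dye effect of each probe as a term, an alternative chosen after seeing the data, 2 were lower in ash2-I1. Genes that differed were then 4, 2 and 6 in the 3 pairs, in the last without Vha14-1 and VhaAC45 and with Vha100-2. Leaving out 1 extraction at a time, 0 to 1 were lower in ash2-I1, 1 to 4 higher in ash2-112411, and 0 higher in ash1-22 without either extraction. Genes that differed were 2 to 4, 0 to 1 and 1 to 5 in the 3 pairs, and the medians ran from -0.07 to 0.03, 0.01 to 0.03 and -0.05 to 0.07. The single extraction left was assumed to vary like the others. Only the first probe of Vha16-1 differed between ash2-112411 and ash1-22 in all 4 of these fits, a call lost with the mean over its probes (0.37), and only Vha36-1 and that probe of Vha16-1 between the ash2 alleles. The cause of these changes was not tested. The extraction numbers do not pair the samples, since same-numbered extractions of the mutants correlated at 0.091, -0.046 and -0.134 in their deviations. With the replicate block 6 Vha genes differed between ash2-112411 and ash1-22, without Vha100-1. Between ash2-I1 and ash1-22 3 differed, Vha36-1 (adjusted p = 0.042) in place of Vha44 (0.062), and the other counts and their genes were as above.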
